A study of Mus musculus with 6 samples.

Results

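The DNAJ family, also called HSP40, holds the cochaperones that carry a J domain. The members described here are the mouse genes whose symbol is Dnaja, Dnajb or Dnajc followed by a number, leaving out Dnajb9, Dnajb11 and Dnajc3, and which had at least 60 counts summed over the 6 libraries of the study. Of the 56691 gene rows, 42 had such a symbol and 36 of them reached the floor, 4 in subfamily A, 8 in subfamily B and 24 in subfamily C. Just inside the floor lay Dnajc22 with a summed count of 107, and just outside it Dnajb3 with 58. The other genes under it were Dnajc6 with 39 counts, Dnajb8 with 3, Dnajb7 with 2, and Dnajc5b and Dnajc5g with 0. All 36 members entered the test described here, among 15429 genes, and none of the 6 under the floor did.

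The study sequenced the bulk RNA of primary cardiomyocytes isolated from neonatal mouse hearts. In the HMGB2 group, 3 libraries came from cells given a serotype 5 adenovirus whose promoter, that of cardiac troponin T (cTNT), drives HMGB2, a chromatin protein with HMG boxes that bends DNA. In the vector group, 3 libraries came from cells given the same cTNT virus with no insert, so both groups carry adenovirus and the promoter. The promoter acts in cardiomyocytes, and the labels leave out the virus dose, the strain, when cells were collected and how many hearts a library stands for. Nothing in them ties a replicate to its own culture or animal. The p-values therefore reflect only how far these libraries differ among themselves, and that variation may be technical.

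J-domain proteins deliver unfolded or partly folded proteins to HSP70 chaperones and speed up the ATP hydrolysis that closes HSP70 on its client. Nucleotide exchange factors then release ADP so that HSP70 opens again. Members of subfamilies A and B resemble the bacterial DnaJ protein over most of their length or over part of it, whereas subfamily C shares little beyond the J domain and works at particular places such as the ribosome, the endoplasmic reticulum or the mitochondrion. In cardiac muscle the family is known for guarding sarcomeric and mitochondrial proteins, and mutations of some members cause myopathy or cardiomyopathy in people.

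Library totals were between 14497676 and 16618365 counts in HMGB2 libraries and between 12498215 and 14101385 in vector libraries. Expression is given in CPM, the count scaled to a common library size by edgeR's TMM factors (from a trimmed mean of log ratios between libraries), and for levels compared between genes in the deposited FPKM, which also divides by gene length. Hmgb2 itself, the check of the labels, had 175, 196 and 182 CPM in HMGB2 libraries, against 46.8, 44.8 and 36.3 CPM in vector libraries, and counts from the virus and from the chromosome were not separated. The library HMGB2 3 and the library vector 1 stood apart from the others of their groups. A chi-square per degree of freedom between replicates was 1.99 between HMGB2 1 and 2 but 15.4 and 14.3 between each of them and HMGB2 3, and it was 2.77 between vector 2 and 3 but 18.6 and 20.6 between each of them and vector 1. Results that rest on these libraries are given with and without them. The summed FPKM of 6 cardiomyocyte markers was between 5334 and 5572 in HMGB2 libraries and between 2305 and 2447 in vector libraries, and 5 of the 6 were called higher. The lists for other cells were not empty, with sums of 536 to 545 in HMGB2 libraries against 592 to 604 in vector libraries for 6 fibroblast genes (1 called lower), 394 to 400 against 449 to 453 for 5 endothelial genes (2 called lower), 43.5 to 50.3 against 54.8 to 80.3 for 5 macrophage genes (2 called lower) and 74.1 to 76.2 against 64.0 to 68.2 for 5 smooth muscle and pericyte genes (1 called higher and 1 lower). The 4 erythroid genes summed to at most 0.44 in HMGB2 libraries and 0.30 in vector libraries, with 1 of them at 0 throughout. The part of this shift in the DNAJ values below was not tested, and in bulk RNA fewer cells of a type cannot be told apart from less RNA per cell.

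The promoters of 5 cytosolic members are shown first, since the 4 most negative log2 fold changes of the family are among them. Heat shock factors, which drive several of these genes under heat, bind runs of the unit GAA and its reverse complement TTC. RefSeq gives a window of 300 bases, from 250 before to 50 after each listed start, on GRCm38, and 29 of the 36 members had one. The patterns searched, on both strands, were GAANNTTC, TTCNNGAA and a longer run in which 3 units alternate with NN between them, so that it contains both shorter patterns. GAANNTTC is in 7.86% of the 32851 promoter windows, or in a window of 9.04% of the 27025 genes with one, and in 4 of the 29 members, Dnaja1, Dnaja4, Dnajb6 and Dnajc27. TTCNNGAA is in 8.52% of windows, or 9.60% of genes, and in 3 members, Dnajb4, Dnajb6 and Dnajc10. The longer pattern is in 0.603% of windows, or 0.662% of genes, and in 1 member, Dnajb6. Each sequence is printed 5′ to 3′ on the strand of its gene with the matched letters in capitals, and Dnajb1 is printed because its windows held no match although it had the most negative log2 fold change of the family.
Dnaja1, chr4:40722333-40722362, plus strand, match at -124 from the start: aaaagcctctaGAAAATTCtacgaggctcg
Dnaja4, chr9:54699439-54699506, plus strand, match at -90: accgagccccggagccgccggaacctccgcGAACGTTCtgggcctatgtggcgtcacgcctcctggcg
Dnajb4, chr3:152193846-152193889, minus strand, match at -14: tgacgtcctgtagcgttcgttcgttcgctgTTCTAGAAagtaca
Dnajb6, chr5:29735844-29735872, plus strand, match at -46: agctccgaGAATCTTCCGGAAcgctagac
Dnajb1, chr8:83608075-83608174, plus strand, -100 to -1, no match: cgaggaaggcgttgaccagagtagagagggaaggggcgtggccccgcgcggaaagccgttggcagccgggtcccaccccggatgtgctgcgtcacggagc
The starts used for Dnaja1, Dnaja4, Dnajb4 and Dnajb6 lie inside the span that GENCODE gives the gene. The matches of Dnaja1 and Dnajb6 lie in an exon of another transcript of the same gene, and Dnaja4 had a further match at -52. A match of these letters is a description of the window and not a measured binding site, and the absence of one says only that these letters are not in it.

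In HMGB2 cells 8 members fell and 3 rose, and 25 did not pass. Dnajb1 and Dnaja1, heat-inducible HSP40 proteins of the cytosol, fell the furthest, to 0.473 and 0.501 of the vector level, followed by Dnajb4, Dnaja4, Dnajc2, Dnajc21, Dnaja2 and Dnajc11. Dnajc9, Dnajc4 and Dnaja3 rose. Over all genes tested, 25.2% were called, 14.4% as higher and 10.8% as lower, by edgeR's quasi-likelihood test at a Benjamini-Hochberg adjusted p under 0.05. Of the members 30.6% were called, 8.33% as higher and 22.2% as lower. DESeq2 called 1 member higher and 8 lower (background 13% and 10.5%), and limma on FPKM 3 higher and 6 lower (9.03% and 5.1%). The median log2 fold change of the members was -0.02 (range -1.08 to 0.73), beside -0.0022 for all genes tested. The groups did not overlap for 11 members that were lower and 5 that were higher in HMGB2 libraries, and over all genes tested they did not overlap in 40.5%, 21.6% higher and 18.9% lower.

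**Figure D1:**
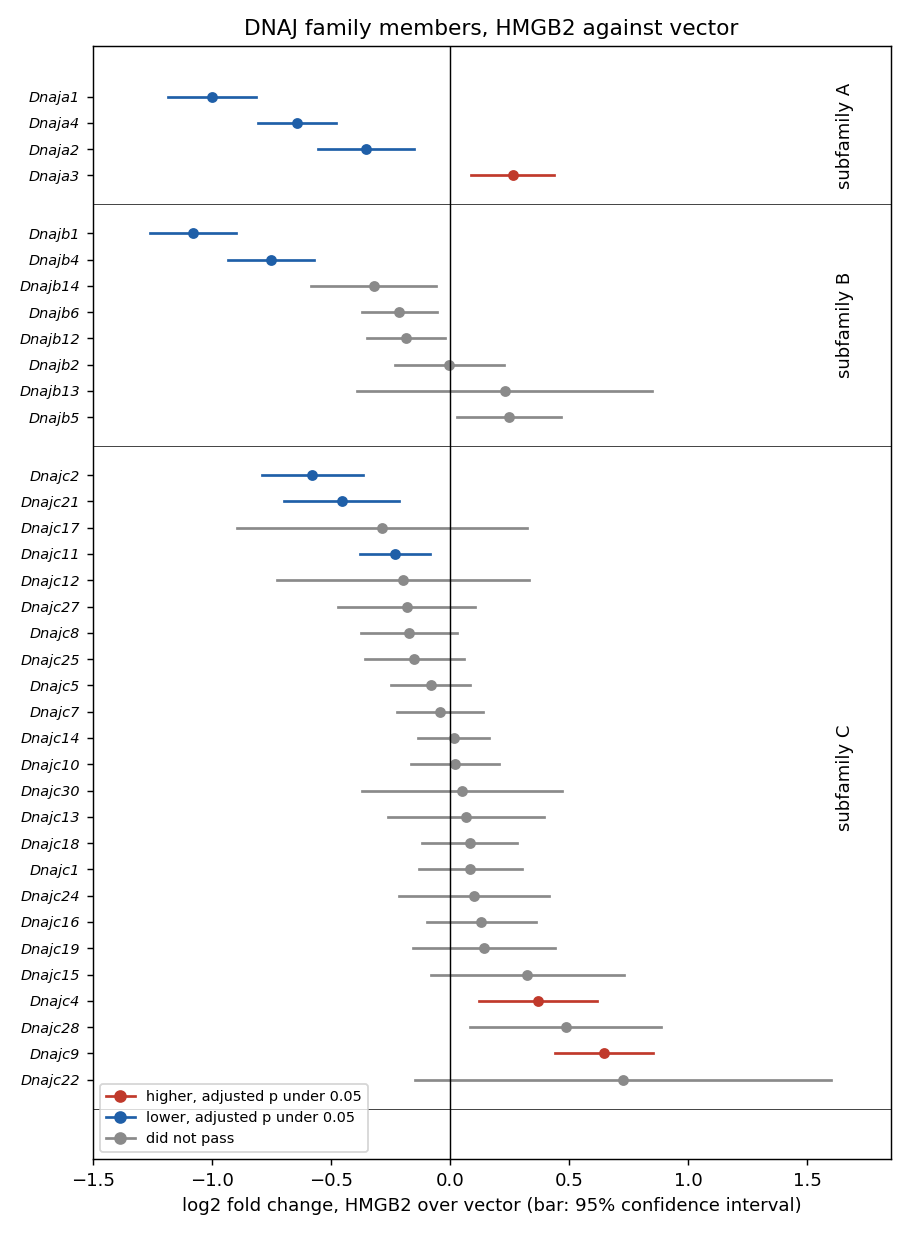
Log2 fold change of each of the 36 members, HMGB2 over vector, by subfamily, with bars for the 95% confidence interval from edgeR. The 4 most negative values, -1.08, -0.998, -0.75 and -0.64, belong to Dnajb1, Dnaja1, Dnajb4 and Dnaja4 of subfamilies A and B, and most of the 24 members of subfamily C lie about 0.

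In subfamily A all 4 members passed in edgeR, 3 lower and 1 higher, with a median log2 fold change of -0.50, whereas DESeq2 called 3 lower and 0 higher and limma 2 lower and 1 higher. In subfamily B 2 of 8 were lower and 0 higher, with a median of -0.20. The share of subfamily B called, 25%, is near the 25.2% over all genes tested, of which 10.8% were lower. At an unadjusted p under 0.05, 1 member of subfamily B was higher and 5 were lower, and DESeq2 and limma each called 0 higher and 2 lower. The share of all genes at an unadjusted p under 0.05 is not given here. It is at least the 25.2% called after adjustment, so the unadjusted counts, here and in the lists below, are not results about the listed genes. In subfamily C 3 of 24 were lower and 2 higher in edgeR, against 3 and 1 in DESeq2 and 2 and 2 in limma. That is 12.5% lower and 8.33% higher in edgeR, beside 10.8% and 14.4% of all genes tested. The share of subfamily C called in edgeR, 20.8%, is thus not above the 25.2% over all genes. The median of subfamily C was 0.04, and with 1 library left out it lay between -0.0065 (without vector 3) and 0.016 (without vector 1). The subfamilies hold few genes and were not tested against each other.

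Among the 9 members that serve HSP70 in the cytosol, 5 fell and 0 rose, with a median log2 fold change of -0.35. That is 55.6% lower, beside 10.8% of all genes tested. At an unadjusted p under 0.05, 6 were lower and 1 was higher, DESeq2 called 5 lower and 0 higher, and limma on FPKM called 4 lower and 0 higher. Dnajb1, the archetype of the heat-inducible HSP40 proteins (ENSMUSG00000005483, chr8:83608193-83612653 on GRCm38), had 54.2, 50.6 and 51.5 CPM in HMGB2 libraries, against 119.6, 108.5 and 102.3 CPM in vector libraries. Every HMGB2 library lay below every vector library by more than the spread within either group. Its mean was 52.1 ± 1.87 CPM in HMGB2 libraries and 110.2 ± 8.77 CPM in vector libraries (SD, n = 3 each), which is a log2 fold change of -1.08 (± 0.08 SE, adjusted p = 1.85e-05 in edgeR), or 2.11-fold lower.

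Dnaja1, a farnesylated cochaperone of constitutive and inducible HSP70 (ENSMUSG00000028410, chr4:40722150-40737149), had 142, 137 and 163 CPM in HMGB2 libraries and 297, 300.2 and 285 CPM in vector libraries. The groups were separated, with HMGB2 3 the highest of its group. The log2 fold change was -0.998 (± 0.08 SE, adjusted p = 3.31e-05 in edgeR), or 1.998-fold lower. The processed pseudogene Gm15542, 99.4% identical to 21.2% of the Dnaja1 transcript, moved alongside it with a log2 fold change of -1.08, so counts could be split between them and both values are uncertain to that extent. Of the exon bases of Dnaja1, 7.05% lie opposite Smu1 on the other strand, and Smu1 had a log2 fold change of -0.23 (edgeR adjusted p = 0.129).

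Dnajb4, a heat-inducible relative of Dnajb1 (chr3:152178511-152210302), had 134, 129 and 144 CPM in HMGB2 libraries and 247, 223 and 216 CPM in vector libraries. The lowest vector library was still well above the highest HMGB2 library. The log2 fold change was -0.75 (± 0.08 SE, adjusted p = 0.000158 in edgeR), or 1.68-fold lower. Dnaja4, the third of the cytosolic subfamily A proteins (chr9:54698873-54716315), had 36.9, 35.5 and 36.9 CPM in HMGB2 libraries and 56.4, 55.4 and 58.7 CPM in vector libraries. Its libraries hardly varied within a group, and the log2 fold change was -0.64 (± 0.07 SE, adjusted p = 0.000219 in edgeR). Of the exon bases of Dnaja4, 44.1% overlap Wdr61 on the opposite strand, and the strand setting of the counting is not given in the sources used here, so counts there cannot be told apart. Wdr61 had a log2 fold change of -0.17 (edgeR adjusted p = 0.284).

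Dnaja2, per length the most abundant member with a mean of 78.9 FPKM over the 6 libraries (chr8:85537633-85555344), is a constitutive partner of Hspa8. It had 197, 196 and 227 CPM in HMGB2 libraries and 289, 257 and 246 CPM in vector libraries. The groups did not overlap, but HMGB2 3 came close to vector 3. The log2 fold change was -0.35 (± 0.09 SE, adjusted p = 0.0190 in edgeR). The call was lost without HMGB2 1 (edgeR adjusted p = 0.0912), without HMGB2 2 (0.0913) or without vector 2 (0.0549). Limma on FPKM did not make it (adjusted p = 0.0736 with a pseudocount of 0.1), and Dnaja2 passed in 7 of 14 alternative fits.

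The other cytosolic members did not pass. Dnajb6, which prevents aggregation and sits at the Z-disc of striated muscle, had 98.3, 107 and 101 CPM in HMGB2 libraries and 118, 123 and 114 CPM in vector libraries. The groups did not overlap, and the log2 fold change was -0.21 (± 0.07 SE, adjusted p = 0.0525 in edgeR). In 2 of 14 alternative fits Dnajb6 passed. Its edgeR adjusted p was 0.0436 when DESeq2's size factors replaced TMM and 0.00399 without HMGB2 3 and vector 1. The fit without both libraries called 40% of all genes, and without HMGB2 1 the edgeR adjusted p of Dnajb6 was 0.213. Processed pseudogenes at least 97.1% identical to at least 23.9% of the Dnajb6 transcript exist, and the one with most counts, Gm6395, had 10.4% as many as Dnajb6. Dnajb5 had 31.6, 30.2 and 35.2 CPM in HMGB2 libraries and 29.0, 27.6 and 25.04 CPM in vector libraries. These groups did not overlap either, with a log2 fold change of 0.25 (± 0.10 SE, adjusted p = 0.0930 in edgeR). Without HMGB2 3 and vector 1 its edgeR adjusted p was 0.0436, and without vector 1 alone 0.0494. In the other alternatives Dnajb5 did not pass, with an adjusted p of up to 0.272 (edgeR without vector 3). Dnajb2, a cochaperone known for sorting clients to the proteasome, had 33.8, 28.1 and 31.5 CPM in HMGB2 libraries and 32.0, 28.3 and 33.3 CPM in vector libraries. Its groups overlapped fully, with a log2 fold change of -0.002 (95% confidence interval -0.23 to 0.23). Dnajc7, the ninth cytosolic member, has TPR repeats that bind HSP70 and HSP90, and it did not pass.

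**Figure D2:**
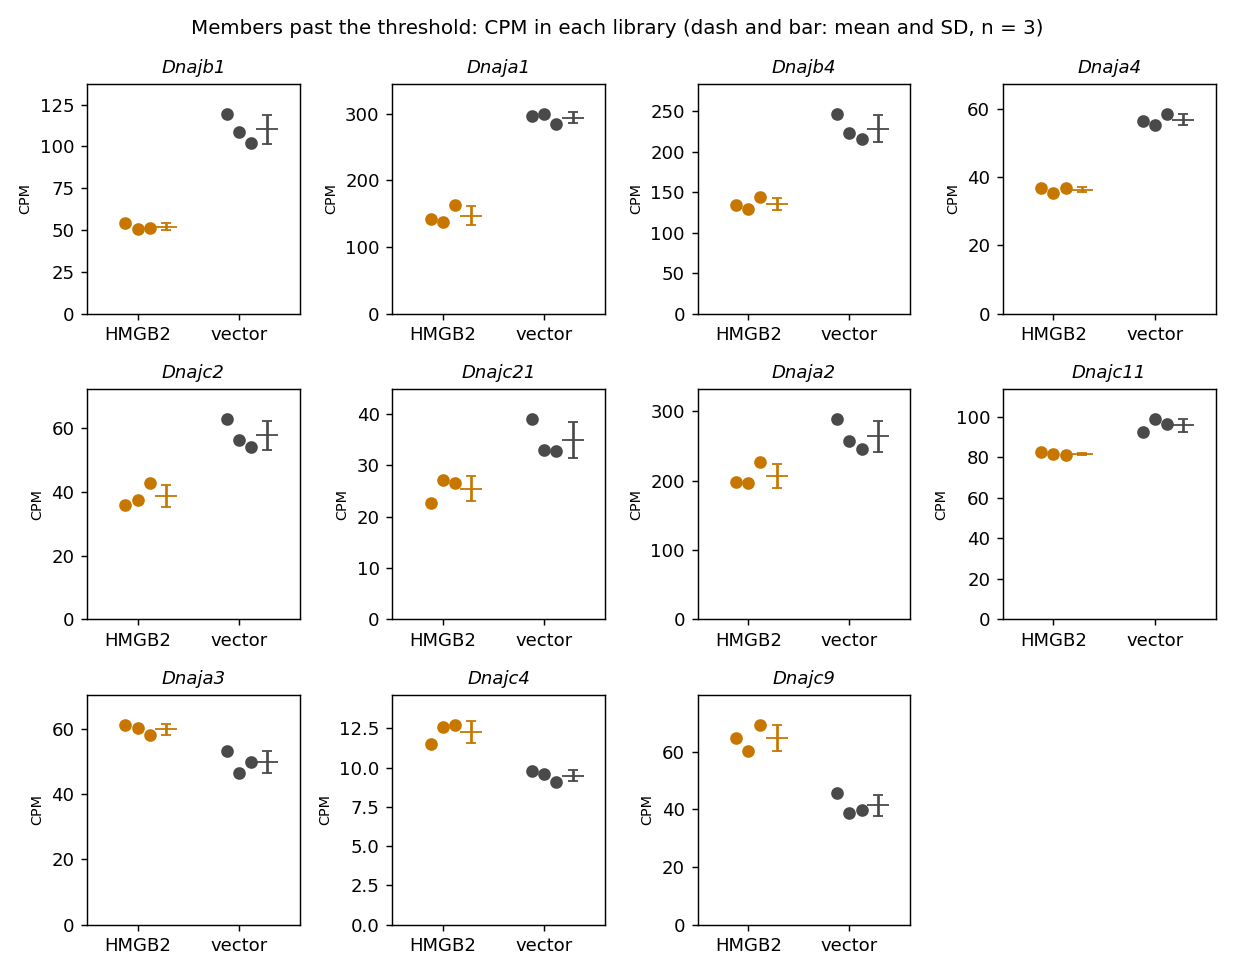
CPM of the 11 members past the threshold in each HMGB2 library (orange, left) and each vector library (grey, right), with the mean and SD of 3 libraries. The axes start at 0, and in all 11 panels the groups do not overlap.

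None of the 8 members of the endoplasmic reticulum passed in edgeR's quasi-likelihood test, with log2 fold changes between -0.32 and 0.13 and a median of 0.02. At an unadjusted p under 0.05, 0 of them were higher and 2 lower, and DESeq2 and limma each called 0 in either direction. Dnajc10, a reductase that opens disulfide bonds of misfolded proteins, was per length the second most abundant member with a mean of 50.9 FPKM. It had 243, 260.0 and 269 CPM in HMGB2 libraries and 277, 246 and 237 CPM in vector libraries. The groups overlapped, and the log2 fold change was 0.02 (95% confidence interval -0.16 to 0.21). Dnajb12 and Dnajb14 are paralogs anchored in the membrane of the endoplasmic reticulum with the J domain facing the cytosol. Dnajb12 had 45.8, 44.5 and 43.6 CPM in HMGB2 libraries and 52.7, 49.2 and 50.3 CPM in vector libraries, which do not overlap, with a log2 fold change of -0.18 (± 0.07 SE, adjusted p = 0.0967 in edgeR). Dnajb14 had 32.4, 29.2 and 25.2 CPM in HMGB2 libraries and 31.9, 38.9 and 37.6 CPM in vector libraries. Here vector 1 fell below HMGB2 1, and the log2 fold change was -0.32 (± 0.12 SE, adjusted p = 0.0745 in edgeR). The edgeR adjusted p of Dnajb14 was 0.00523 without HMGB2 3 and vector 1, and 0.0161 without vector 1 alone. With no filter on low counts it was 0.0273, but limma on unfiltered FPKM gave an adjusted p of 0.321. Dnajb14 passed in 3 of 14 alternative fits. Of the 8, 1 was called lower without both libraries, where 19.1% of all genes were called lower and 40% in either direction.

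Of the 3 genes of the endoplasmic reticulum that the symbol rule leaves out, Dnajb9 and Dnajb11, cochaperones of Hspa5, had log2 fold changes of 0.22 (edgeR adjusted p = 0.157) and 0.12 (0.372), and Dnajc3 fell with -0.23 (0.0281), a call lost without vector 2, vector 3 or any 1 of the HMGB2 libraries (adjusted p up to 0.128).

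Of the 5 mitochondrial members, 1 rose and 1 fell, and the median log2 fold change was 0.14. That is 20% in each direction, beside 14.4% higher and 10.8% lower over all genes tested. Dnaja3, a partner of the mitochondrial HSP70 Hspa9 whose loss in the mouse heart causes dilated cardiomyopathy (chr16:4639989-4707695), is the member of subfamily A that went the other way. It had 61.3, 60.2 and 58.0 CPM in HMGB2 libraries and 53.2, 46.6 and 49.7 CPM in vector libraries. The groups did not overlap, and the log2 fold change was 0.26 (± 0.08 SE, adjusted p = 0.0345 in edgeR). DESeq2 did not call it (adjusted p = 0.0749). In edgeR the call was lost without HMGB2 1 (adjusted p = 0.116), HMGB2 2 (0.106), vector 2 (0.135) or vector 3 (0.0974). Dnaja3 passed in 6 of 14 alternative fits. Dnajc11, a protein tied to the complex that shapes the cristae (chr4:151933691-151982137), had 82.4, 81.4 and 81.3 CPM in HMGB2 libraries and 92.5, 98.8 and 96.4 CPM in vector libraries. The HMGB2 libraries lay close together and below all vector libraries. The log2 fold change was -0.23 (± 0.07 SE, adjusted p = 0.0311 in edgeR). The call was lost in edgeR without HMGB2 1 (adjusted p = 0.113), HMGB2 2 (0.118), HMGB2 3 (0.0740), vector 2 (0.115) or vector 3 (0.0882). Dnajc11 passed in 4 of 14 alternative fits. Dnajc15 and Dnajc19, which act at the import motor of the inner membrane, and Dnajc30 did not pass. Of the alternatives Dnajc15 passed only without HMGB2 3 and vector 1 (edgeR adjusted p = 0.0493), a fit that called 40% of all genes.

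Of the 5 members at the ribosome, on RNA or on chromatin, 2 fell and 1 rose, and the median log2 fold change was -0.29. That is 40% lower and 20% higher, beside 10.8% and 14.4% of all genes tested. Dnajc2 recruits HSP70 to chains leaving the ribosome, as part of the ribosome-associated complex (chr5:21757267-21785251). It had 35.9, 37.4 and 42.7 CPM in HMGB2 libraries and 62.9, 56.3 and 54.2 CPM in vector libraries. The groups were apart by more than their spread, with a log2 fold change of -0.58 (± 0.09 SE, adjusted p = 0.0020 in edgeR). Dnajc21 takes part in the maturation of the large ribosomal subunit (chr15:10446756-10470516). It had 22.7, 27.2 and 26.5 CPM in HMGB2 libraries and 39.0, 32.9 and 32.9 CPM in vector libraries. The groups did not overlap, with a log2 fold change of -0.46 (± 0.11 SE, adjusted p = 0.0136 in edgeR). The call was lost without HMGB2 1 (edgeR adjusted p = 0.0642) and with the replicate block (0.0661). Limma on unfiltered FPKM did not make it either (adjusted p = 0.0807), and Dnajc21 passed in 11 of 14 alternative fits.

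Dnajc9, a histone chaperone that brings HSP70 to H3 and H4 (chr14:20384638-20388910), had the largest log2 fold change of the 3 that rose. It had 64.6, 60.1 and 69.4 CPM in HMGB2 libraries and 45.7, 38.7 and 39.7 CPM in vector libraries. No HMGB2 library came near the vector libraries, and the log2 fold change was 0.65 (± 0.09 SE, adjusted p = 0.000909 in edgeR), or 1.57-fold higher. Dnajc8, a protein found with spliceosomes, had 79.3, 89.9 and 94.7 CPM in HMGB2 libraries and 108, 96.8 and 92.8 CPM in vector libraries. Its groups overlapped, with a log2 fold change of -0.17 (± 0.09 SE, adjusted p = 0.206 in edgeR). Of the alternatives Dnajc8 passed only without HMGB2 3 and vector 1 (edgeR adjusted p = 0.0324), where 40% of all genes were called.

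Neither of the members of vesicles and endosomes passed in edgeR's quasi-likelihood test. At an unadjusted p under 0.05 the count was also 0, as it was in DESeq2 and limma. Dnajc5, the cysteine string protein of synaptic vesicles, had 159.7, 158 and 149 CPM in HMGB2 libraries and 154, 166 and 175 CPM in vector libraries, with a log2 fold change of -0.08 (95% confidence interval -0.25 to 0.09). Dnajc13, which helps uncoat clathrin on early endosomes, had 191, 191 and 143 CPM in HMGB2 libraries and 134, 185 and 182 CPM in vector libraries. Both libraries that stand apart were low in it, within overlapping groups, and the log2 fold change was 0.07 (95% confidence interval -0.26 to 0.40). Among the 7 members of other or less certain function, 1 rose and 0 fell, with a median of 0.23. The share higher, 14.3%, is near the 14.4% over all genes tested, so this count is not a result about the list. At an unadjusted p under 0.05, 2 were higher and 0 lower, DESeq2 called 0, and limma called 1 higher and 0 lower. The called one was Dnajc4, with 11.5, 12.6 and 12.7 CPM in HMGB2 libraries and 9.78, 9.57 and 9.09 CPM in vector libraries. Its groups did not overlap, but the counts are low, the log2 fold change was 0.37 (± 0.11 SE, adjusted p = 0.0360 in edgeR) and DESeq2 gave an adjusted p of 0.109. The call was lost without HMGB2 1 (edgeR adjusted p = 0.0605), HMGB2 2 (0.112), HMGB2 3 (0.0935), vector 2 (0.0920) or vector 3 (0.111). Dnajc4 passed in 6 of 14 alternative fits. Dnajb13, a protein of the radial spokes of cilia, had at most 3.10 CPM in HMGB2 libraries and 2.85 CPM in vector libraries, with a log2 fold change of 0.23 (± 0.28 SE, adjusted p = 0.597 in edgeR). Of its exon bases, 11.2% overlap Ucp2 on the opposite strand, which had far more counts. Dnajc22, just inside the floor, had 1.26, 1.10 and 2.06 CPM in HMGB2 libraries and 0.561, 1.24 and 0.859 CPM in vector libraries, which overlap.

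Of the 11 calls, 5 lower (Dnaja1, Dnaja4, Dnajb1, Dnajb4 and Dnajc2) and 1 higher (Dnajc9) were made in all 14 alternative fits. When HMGB2 3 and vector 1 were both left out, 11 members were lower and 5 higher, with a background of 40% of genes called (19.1% lower and 20.9% higher), and the added ones were Dnajb6, Dnajb14 and Dnajc8 as lower and Dnajb5 and Dnajc15 as higher.

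Summed over members, the cytosolic cochaperones had 167, 163 and 184 FPKM in HMGB2 libraries, against 258, 236 and 229 FPKM in vector libraries. Subfamily A summed to 109, 107 and 122 FPKM in HMGB2 libraries and 160.4, 146 and 143 FPKM in vector libraries. Subfamily B summed to 78.3, 76.0 and 79.0 FPKM in HMGB2 libraries and 116, 107 and 104 FPKM in vector libraries. In these 3 sums every HMGB2 library was below every vector library. Subfamily C summed to 244, 249.96 and 262 FPKM in HMGB2 libraries and 259, 241 and 238 FPKM in vector libraries, which overlap. Subfamily C thus made up 57.0% ± 0.656 of the summed FPKM of the family in HMGB2 libraries and 48.7% ± 0.247 in vector libraries (SD, n = 3 each). The shares of subfamily A were 25.4% ± 0.837 in HMGB2 libraries and 29.7% ± 0.232 in vector libraries, and those of subfamily B were 17.6% ± 0.546 in HMGB2 libraries and 21.6% ± 0.101 in vector libraries. The shares add up to the whole, so that they do not move independently of each other.

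**Figure D3:**
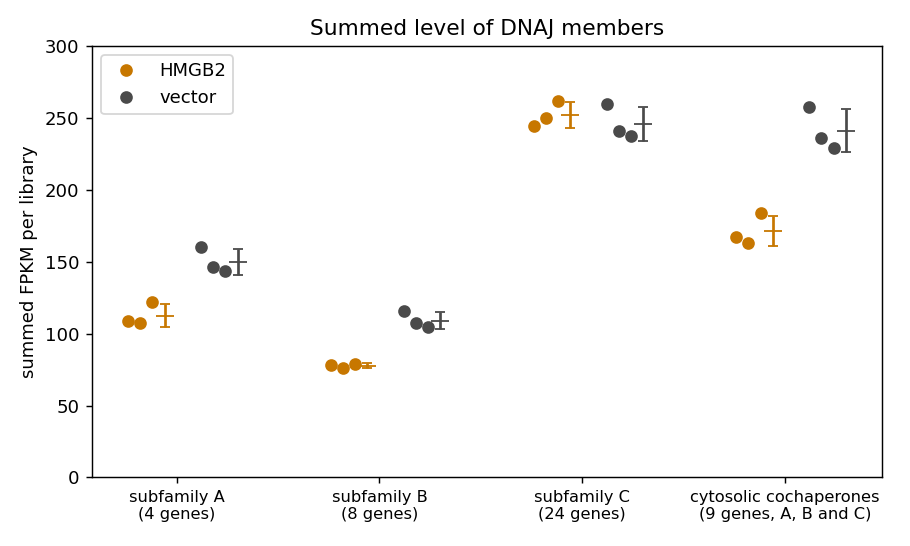
Summed FPKM per library of subfamilies A, B and C and of the 9 cytosolic cochaperones, which come from all 3 subfamilies, in HMGB2 libraries (orange) and vector libraries (grey), with the mean and SD of 3 libraries. Subfamily A averages 113 against 149.99 FPKM and subfamily B 77.8 against 109 FPKM, HMGB2 against vector, whereas the points of subfamily C overlap.

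Both kinds of HSP70 that the cytosolic members serve, inducible and constitutive, had larger fold changes than any member. Of 15 HSP70 and HSP110 genes, 6 fell and 1, Hspa12a, rose, with a median log2 fold change of -0.18. That is 40% lower and 6.67% higher, beside 10.8% and 14.4% of all genes tested. The stress-inducible Hspa1b had 7.69, 7.93 and 8.06 CPM in HMGB2 libraries and 673, 662 and 669 CPM in vector libraries, with a log2 fold change of -6.40 (± 0.08 SE, adjusted p = 3.01e-10 in edgeR). The groups were nowhere near each other. Hspa1a, a near-identical copy with which it can share reads, had a log2 fold change of -6.38 (± 0.11 SE, adjusted p = 1.61e-09 in edgeR). The constitutive Hspa8 had 379, 421 and 417 CPM in HMGB2 libraries and 1622, 1696 and 1552 CPM in vector libraries, with a log2 fold change of -2.00 (± 0.08 SE, adjusted p = 6.88e-07 in edgeR). Hsph1, an HSP110 protein that acts as an exchange factor, had a log2 fold change of -1.68 (± 0.07 SE, adjusted p = 9.62e-07 in edgeR). Hspa5 of the endoplasmic reticulum, at -0.13 (edgeR adjusted p = 0.316), and Hspa9 of mitochondria, at -0.13 (0.270), did not pass. Hyou1, also of the endoplasmic reticulum, was called lower, at -0.31 (edgeR adjusted p = 0.00653). Its call was made in 13 of 14 alternative fits. Hspa4, the remaining gene called lower, was at -0.47 (edgeR adjusted p = 0.00277), with the call made in all 14.

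Hspa1a, Hspa1b and Hspa8 summed to 92.2, 102 and 102 FPKM in HMGB2 libraries and 710.0, 705 and 683 FPKM in vector libraries. The ratio of the summed FPKM of the 9 cytosolic cochaperones to this sum, a measure chosen after these values were seen, was 1.81, 1.61 and 1.80 in HMGB2 libraries and 0.363, 0.335 and 0.336 in vector libraries. The ratio was thus higher in every HMGB2 library, while both of its parts were lower. Since FPKM counts transcripts and not protein, it says nothing of how many cochaperones stand beside each HSP70 molecule.

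Of 9 nucleotide exchange factors, 1 fell, Bag3, and 0 rose, with a median log2 fold change of -0.09. The share lower, 11.1%, is near the 10.8% over all genes tested, so this count is not a result about the list. At an unadjusted p under 0.05, 2 were lower and 1 higher, and DESeq2 and limma each called 1 lower and 0 higher. Bag3, Hspa12a, Hspa4 and Hyou1 were named after their values were seen, and Hspa12a was no longer called without HMGB2 2 (adjusted p = 0.0581 in edgeR). Hsf1, the factor that drives transcription of heat-inducible chaperones, had 20.3, 19.3 and 19.7 CPM in HMGB2 libraries and 28.5, 26.1 and 28.5 CPM in vector libraries. The groups did not overlap, and its log2 fold change was -0.49 (± 0.09 SE, adjusted p = 0.00324 in edgeR). Of the 3 heat shock factors, Hsf2 and Hsf4 did not pass in edgeR. Hsf4 had few counts, with 2.65, 3.03 and 3.21 CPM in HMGB2 libraries and 1.52, 2.19 and 0.787 CPM in vector libraries, and was chosen after its values were seen. Its groups did not overlap, with a log2 fold change of 0.98 (± 0.32 SE, adjusted p = 0.0533 in edgeR), opposite in sign to that of Hsf1, and it passed in 4 of 14 alternative fits. DESeq2 called 1 heat shock factor higher and 1 lower, as did edgeR without HMGB2 3 and vector 1, and limma called 0 higher and 1 lower.

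**Figure D4:**
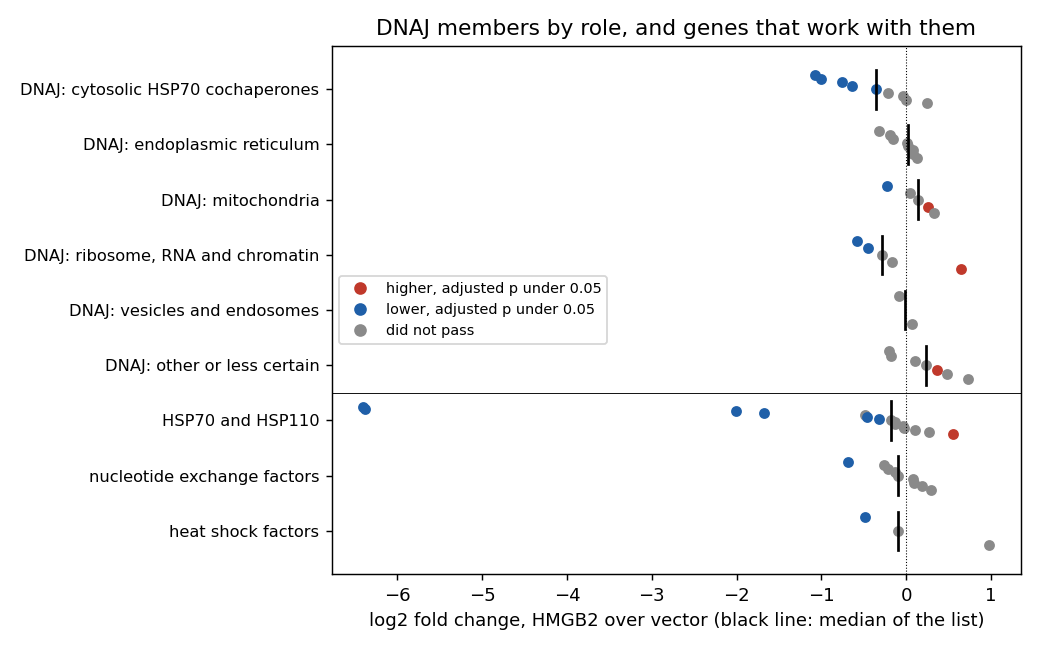
Log2 fold change, HMGB2 over vector, of each of the 36 members by role (above the line) and of the genes that work with them (below it), with the median of each list as a black bar. The medians of the cytosolic cochaperones and of the endoplasmic reticulum members are -0.35 and 0.02, and Hspa1a and Hspa1b lie at -6.38 and -6.40.

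Within groups, the members varied with the libraries that stand apart. Vector 1 differed from the mean of vector 2 and 3 on the log2 CPM scale by a median of 0.14 over the 32 members with joined exons of 10 kb or less, and by -0.24 over the 4 longer ones, Dnajb14, Dnajc13, Dnajc1 and Dnajc11. HMGB2 3 differed from the mean of HMGB2 1 and 2 by medians of 0.12 and -0.23 over the same 2 classes. For all 4 long members the difference was negative in both libraries, with Dnajc11 at only -0.012 in HMGB2 3. Of the other 32 members, 23 were above in HMGB2 3 and 25 in vector 1. The limit of 10 kb was chosen after these values were seen, and the part of transcript length in the differences between groups was not tested. HMGB2 and vector each hold 1 such library.

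**Figure D5:**
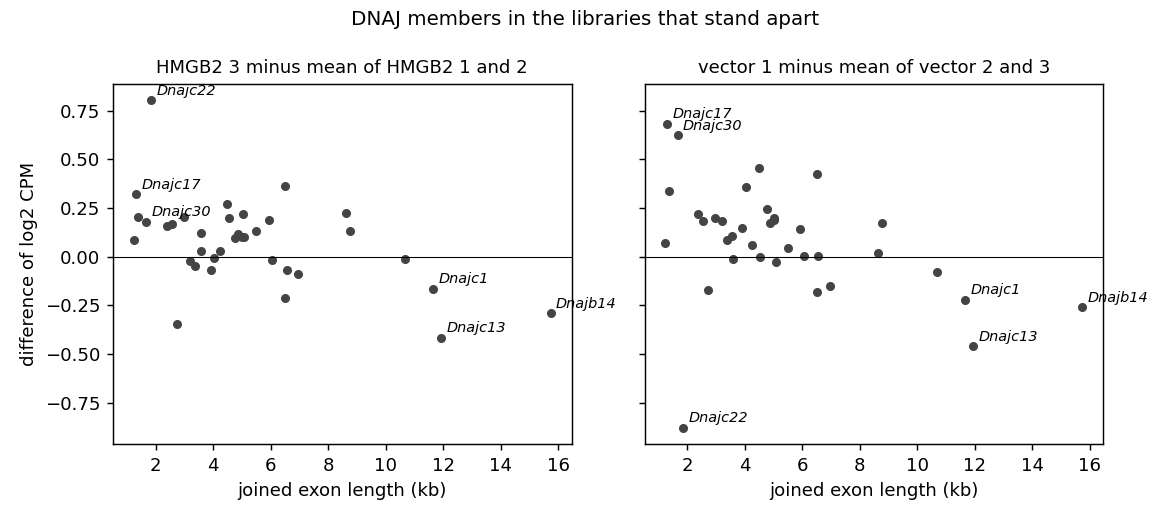
Difference of log2 CPM of the 36 members between HMGB2 3 and the mean of HMGB2 1 and 2 (left) and between vector 1 and the mean of vector 2 and 3 (right), against joined exon length in kb. The 4 members over 10 kb lie below 0 in both panels.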

How the data were processed

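Per the labels' protocols, TRIzol was used to extract total RNA, and the library kit was VAHTS Universal V5. Per the submitters' processing notes, the tools, listed without roles, were StringTie 1.3.3b, HTSeq 0.6.1, HISAT2 2.2.1 and FastQC 0.10.1, with the build mm10. The authors deposited 2 tables of 56691 gene rows, one with raw counts per gene and one with FPKM values. Columns were matched to libraries by group abbreviation and replicate number. For 35 of 36 members the gene length implied by FPKM was within 1% of the joined GENCODE M21 exons, with Dnajc7 the exception. Positions are from GENCODE M21 on GRCm38, matched by Ensembl identifier, since 3 of 36 members had the same position in the tables.

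The test on counts was that of edgeR 4.0.16 (R 4.3.3), after filterByExpr (minimum count 10, minimum total 15), scaling by the trimmed mean of M values (TMM), on all 6 libraries, in a robust quasi-likelihood model whose single term was the group. Benjamini-Hochberg adjustment ran over the whole table of 15429 tested genes, with a threshold of 0.05 and none on the fold. The procedure was also run on simulated data, with independent replicates and no libraries that stand apart. That run cannot show how such libraries affect the calls. No exact test is given, because with 3 libraries against 3 the smallest two-sided permutation p is 0.1. Alternatives were DESeq2 1.42.0, its size factors in edgeR, no filter on low counts, limma 3.58.1 on log2(FPKM + 0.1) or log2(FPKM + 1), a replicate block, each library left out, and HMGB2 3 and vector 1 left out. Limma counts in the text are those with the pseudocount 0.1, on genes over 0.1 FPKM in at least 3 libraries. Copies of members were found with blastn 2.17.0 (at least 95% identity over at least 10% of the transcript). Lists were described by counts and medians. A list of J-domain genes with other symbols is not reported here. Named genes were every member past the threshold, every member of subfamilies A and B, the 4 members of subfamily C with the highest mean FPKM that did not pass, and the members beside the floor; of the partner lists, the 4 largest called changes and Hspa5, Hspa9 and Hsf1. Members and lists were chosen with earlier results of these data known.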

Additional observations from a re-analysis of the deposited data

How the results depend on the processing

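The number of DNAJ members called higher, 3, became 1 with DESeq2 and 1 with no filter on low counts (background 7.8% of genes higher). It became 5 without both HMGB2 3 and vector 1 (background 20.9% higher). With 1 library left out it ranged from 1 to 4 (background 9.94% to 16% higher). The number called lower, 8, became 5 with limma on FPKM with no filter on low values (background 2.38% lower). With 1 library left out it ranged from 5 to 9 (background 5.49% to 12.4% lower). Of all 15429 genes tested, 2224 were higher and 1662 lower. These counts became 1475 and 741 with limma on unfiltered FPKM, where 31173 genes were tested. The lower count became 1034 with a pseudocount of 0.1 and 1014 with a pseudocount of 1, each over 20288 genes. Without both libraries the lower count became 2986, over 15644 genes. When 1 library was left out the higher count ranged from 1567 to 2526 and the lower count from 866 to 1960. Those fits tested between 15749 and 15826 genes. The causes were not tested.

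Deviations from the group mean showed no clear pairing of libraries by replicate number. Correlations of same-numbered deviations were -0.32, 0.23 and -0.37, and not every library correlated best with its own number. The largest correlation, 0.52, was between vector 1 and HMGB2 3, the libraries that stand apart. These libraries weigh on the correlations, so the check cannot tell whether a replicate number stands for a shared culture or day. With the replicate block, 1 member was higher and 5 lower, and of all genes 1459 (9.46%) were higher and 754 (4.89%) lower.

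Dnajb2 changed sign, with log2 fold changes of 0.013 without both libraries, 0.016 with limma unfiltered, 0.016 with a pseudocount of 0.1, 0.014 with a pseudocount of 1, and from -0.070 to 0.067 when 1 library was left out. So did Dnajc10 (-0.027 to 0.092) and Dnajc13 (-0.070 to 0.20) when 1 library was left out. Of the members given without values, Dnajc30 kept its sign in 11 of 14 alternatives (-0.058 to 0.28) and Dnajc7 in 13 (-0.093 to 0.017). The median over all genes shifted by at most 0.022 under any setting. The subfamily A median lay between -0.53 and -0.45 and that of subfamily B between -0.22 and -0.17, while that of subfamily C, between -0.0065 and 0.067, was not stable in sign. With 3 libraries a group, the calls of Dnaja2, Dnaja3, Dnajc4, Dnajc11 and Dnajc21 were lost without single libraries, and those of the other 6 called members were not.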
